A study of Homo sapiens with 12 samples.

Results

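The iron uptake and storage genes were a set of 10 genes (TFRC, FTH1, FTL, SLC11A2, SLC40A1, IREB2, ACO1, HMOX1, STEAP3 and FBXL5), found by gene symbol among 58381 genes that both deposited tables hold, and 10 of 10 passed the filter on low counts. Polyadenylated RNA was measured in 12 cultures of HMC-1 cells, a human mast cell leukaemia line, 4 groups with 3 libraries for each. The receptor KIT is mutated as V560G in HMC-1.1, and as both V560G and D816V in HMC-1.2 cells. For HMC-1.3, V560G was reversed by CRISPR/Cas9 in HMC-1.2 cells, so that D816V is what remains in clone 1 and clone 2. Each HMC-1.3 group is a line grown from 1 edited cell, all 4 lines descend from the same leukaemia, and the libraries of a group are wells plated from 1 line, so the p-values below measure the spread between cultures, which may be technical. Editing, growth from a single cell and time in culture cannot be told apart in the comparisons of HMC-1.3 with HMC-1.2.

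Cells take up iron mainly as transferrin bound to the transferrin receptor TFRC, reduce it in endosomes with STEAP3 and move it to the cytosol through SLC11A2. What is not used is stored in ferritin, a shell of FTH1 heavy chains, which oxidise the iron, and FTL light chains, or leaves the cell through ferroportin, encoded by SLC40A1. The RNA-binding proteins encoded by ACO1 and IREB2 hold the system in balance: in iron-poor cells they bind hairpins called iron-responsive elements, which blocks translation when the hairpin lies in a 5′ UTR and protects the mRNA from decay when it lies in the 3′ UTR of TFRC. FBXL5 is the iron-sensing subunit of the ligase that marks the IREB2 product for degradation, and HMOX1 releases iron from haem.

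The hairpins are shown because their place in the mRNA, at the 5′ end of the storage and export genes and at the 3′ end of TFRC, matters in the known regulation. The motif CNNNNNCAGTGN, with 5 paired bases on each side of the loop, was searched on the transcript strand in the UTRs of the Ensembl canonical transcripts (Gencode 44, GRCh38), and the capitals below mark the matched hairpin. A match stood in the 5′ UTR of 19 of 19701 genes (0.0964%) and in the 3′ UTR of 121 (0.614%), and 4 of the 10 members held at least 1: FTH1 (chr11:61967580-61967596, minus strand), FTL (chr19:48965341-48965357, plus strand) and SLC40A1 (chr2:189580667-189580683, minus strand) in the 5′ UTR, and TFRC in the 3′ UTR with 4 matches on the minus strand of chromosome 3 (a, chr3:196050985-196051001; b, chr3:196050581-196050597; c, chr3:196050516-196050532; d, chr3:196050469-196050485).
FTH1: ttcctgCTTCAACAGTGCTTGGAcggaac
FTL: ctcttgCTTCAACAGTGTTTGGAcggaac
SLC40A1: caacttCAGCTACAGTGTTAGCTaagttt
TFRC a: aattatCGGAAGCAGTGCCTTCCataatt
TFRC b: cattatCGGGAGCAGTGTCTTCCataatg
TFRC c: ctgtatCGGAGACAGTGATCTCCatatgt
TFRC d: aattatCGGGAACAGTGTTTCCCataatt

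A match is a description of the reference sequence, and protein binding was not measured. Only the canonical transcript of each gene and this strict motif were searched. A member without a match may therefore hold an element in another transcript or of another form. The files hold mRNA levels, so that neither ferritin protein nor the iron content of the cells can be read from them.

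The libraries held 29225900 to 43181402 expected counts. The cells expressed 7 to 8 of 10 mast cell markers above 1 FPKM (fragments per kilobase of transcript at a fixed depth, a level per length), with KIT at 356 to 450 FPKM in group means, CMA1 (chymase) and MS4A2 below 1 FPKM in every library, and a summed marker level of 1803 to 1936 FPKM in HMC-1.1 and both HMC-1.3 clones against 2385 to 2422 FPKM in HMC-1.2. Most of that gap is the tryptase gene TPSAB1, at 592 FPKM in the HMC-1.2 mean and 29.4 to 44.2 FPKM in the others, while KIT, SIGLEC6, GATA2 and CPA3 had their lowest group means in HMC-1.2. Of 8 macrophage markers and 6 T and B cell markers, 0 exceeded 1 FPKM in a group mean, and CD163, a haemoglobin scavenger receptor, reached at most 1 count in a library. Of 11 erythroid markers, which matter here because haem-forming cells use many of the same genes, 3 to 5 exceeded 1 FPKM, with a summed level of 19.6 to 30.2 FPKM that was 19.9 to 21.6 FPKM in HMC-1.2, overlapped there with HMC-1.1 and clone 2 and was higher in clone 1 (23.7 to 30.2 FPKM), while AHSP had at most 1 count in a library. Most of the HMC-1.2 sum was EPOR, with a group mean of 13.85 FPKM there and 9.72 to 10.45 FPKM in the others. The globin gene HBE1, outside this list and named after its values were seen, went the other way. It measured 16.1 to 19.8 FPKM in HMC-1.2 and 36.8 to 48.3 FPKM in the other lines.

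By level, the storage genes stood far above the rest of the set. Ranked by mean FPKM over all libraries, FTH1 (2816 FPKM) was the gene at rank 20 and FTL (2270 FPKM) the gene at rank 34, and both chains together made up 0.281 to 0.313% of all counts in a library. TFRC followed at 58.4 FPKM, IREB2 at 39.2 FPKM, ACO1 at 25.5 FPKM, SLC11A2 at 24.7 FPKM, FBXL5 at 20.2 FPKM, HMOX1 at 18.0 FPKM and STEAP3 at 10.99 FPKM. SLC40A1, the exporter, was close to the lower limit of detection outside HMC-1.2, with a mean of 0.44 FPKM over all libraries.

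**Figure D1:**
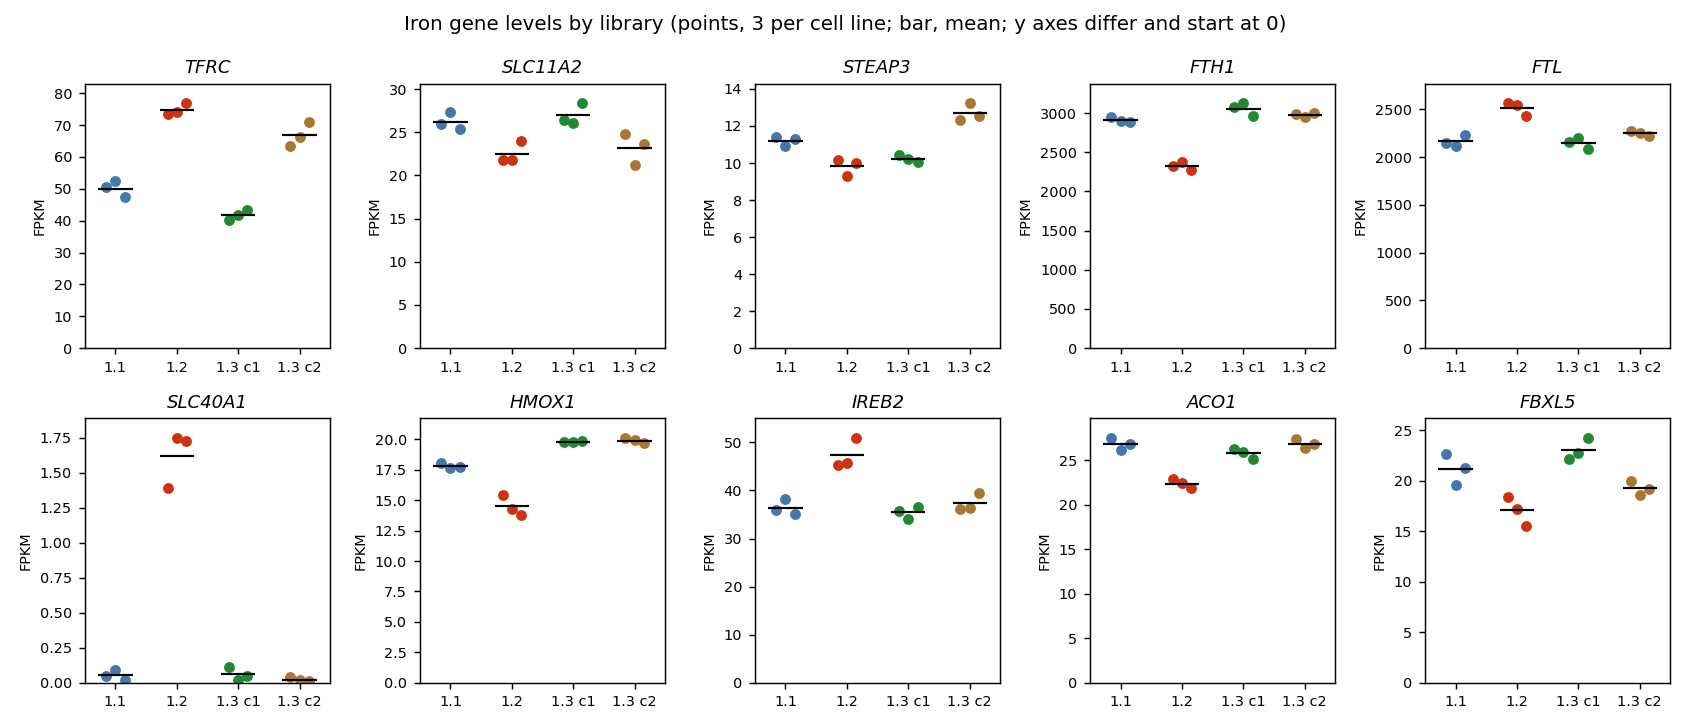
FPKM (y axis, from 0, a separate scale per gene) of the 10 iron genes in each of 12 libraries (points), with the group mean as a bar (1.3 c1 and 1.3 c2 are the HMC-1.3 clones). HMC-1.2 lies above the other groups for TFRC, FTL, SLC40A1 and IREB2 and below them for FTH1, HMOX1, ACO1 and, by a narrow margin, FBXL5.

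HMC-1.2 cells differed from the other lines in nearly the whole set, mostly by small amounts. The test was edgeR's quasi-likelihood test, with p-values adjusted by Benjamini-Hochberg over 15944 genes and a threshold of 0.05. Relative to HMC-1.2, 5 members were higher and 4 lower in clone 1 of HMC-1.3, where 30.1% of all genes tested were higher and 29.3% lower. In clone 2, 5 were higher and 4 lower (24.7% and 23.8% of all genes), and in HMC-1.1, 6 were higher and 4 lower (27.2% and 26.5% of all genes). TFRC, FTL, SLC40A1 and IREB2 were the lower genes in each case, and FTH1, HMOX1, ACO1 and FBXL5 were among the higher ones in each case. HMC-1.2 libraries enter all 3 of these comparisons, so that a value that is high or low there moves all of them. Against this breadth, differences over 1.5-fold ("changed" below) were few: 2 of 10 members in clone 1 (20.0% of all genes), 1 in clone 2 (16.5%) and 2 in HMC-1.1 (17.6%), which are SLC40A1 in each and TFRC in clone 1 and HMC-1.1. The member counts are near these shares of all genes, or below them in clone 2. The median log2 fold change of the members was 0.08 for clone 1, 0.13 for clone 2 and 0.20 for HMC-1.1, beside medians of 0.01, -9.12e-05 and 0.01 over all genes tested. In bulk RNA, fewer cells that express a gene and less RNA per cell cannot be told apart.

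**Figure D2:**
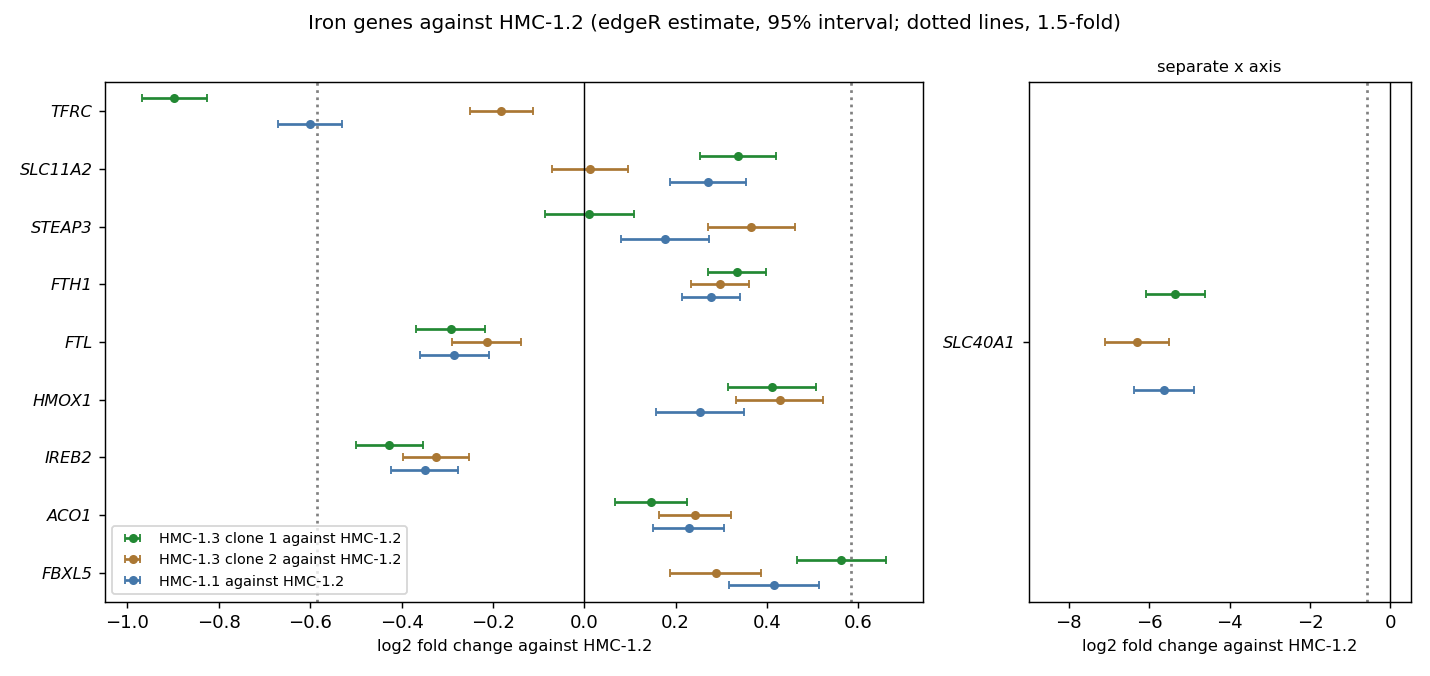
edgeR log2 fold change (x axis) of each iron gene in HMC-1.3 clone 1, HMC-1.3 clone 2 and HMC-1.1 against HMC-1.2 (points) with 95% intervals (bars), with SLC40A1 on its own axis. The dotted lines mark 1.5-fold, which SLC40A1 passes in 3 of 3 comparisons, and TFRC passes in clone 1 (-0.90) and by a narrow margin in HMC-1.1 (-0.60).

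Among the uptake genes, TFRC (chr3:196012511-196082153, minus strand) varied most, and it differed between all 4 lines. Its FPKM was 73.5, 74.2 and 76.8 in HMC-1.2, 63.4, 66.1 and 70.9 in HMC-1.3 clone 2, 50.4, 52.5 and 47.3 in HMC-1.1, and 40.3, 41.8 and 43.3 in HMC-1.3 clone 1. The libraries of the 4 groups did not overlap, and the order of the lines was HMC-1.2, clone 2, HMC-1.1 and clone 1. Against HMC-1.2, TFRC was 1.86-fold lower in clone 1 (log2 fold change -0.90, SE 0.03, edgeR adjusted p = 3.9e-13), 1.515-fold lower in HMC-1.1 (-0.60, SE 0.03, edgeR adjusted p = 9.2e-11; -0.58 and under 1.5-fold without HMC-1.1 replicate 3), and 1.13-fold lower in clone 2 (-0.18, SE 0.03, edgeR adjusted p = 0.00019). Each of the neighbouring steps in that order passed the test: clone 2 exceeded HMC-1.1 (log2 fold change 0.42, edgeR adjusted p = 3.1e-08), and clone 1 was below HMC-1.1 (-0.30, edgeR adjusted p = 1.6e-05). The edited clones thus stood at opposite ends of the range below HMC-1.2, with clone 1 1.64-fold lower than clone 2 (log2 fold change -0.72, 95% interval -0.79 to -0.65, edgeR adjusted p = 2.2e-11).

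SLC11A2 and STEAP3, the transporter and the ferrireductase that act on iron after TFRC has delivered it, split the clones in opposite ways. SLC11A2 (chr12:50979401-51028566, minus strand) measured 26.4, 26.1 and 28.4 FPKM in clone 1 and 25.9, 27.3 and 25.3 FPKM in HMC-1.1, against 21.8, 21.8 and 24.0 FPKM in HMC-1.2 and 24.8, 21.2 and 23.6 FPKM in clone 2. The former pair of lines lay above the latter pair without overlap. Compared with HMC-1.2, the log2 fold change was 0.34 in clone 1 (edgeR adjusted p = 1.2e-06) and 0.27 in HMC-1.1 (edgeR adjusted p = 1.7e-05), whereas in clone 2 it was 0.01 (95% interval -0.07 to 0.10, edgeR adjusted p = 0.82). STEAP3 (chr2:119223831-119265652, plus strand) measured 12.4, 13.2 and 12.6 FPKM in clone 2, 11.4, 10.9 and 11.3 FPKM in HMC-1.1, 10.5, 10.2 and 10.0 FPKM in clone 1, and 10.2, 9.31 and 9.99 FPKM in HMC-1.2. Here clone 2 was highest and clone 1 overlapped with HMC-1.2. The log2 fold change against HMC-1.2 was 0.37 in clone 2 (edgeR adjusted p = 3.2e-06), 0.18 in HMC-1.1 (edgeR adjusted p = 0.0035), and 0.01 in clone 1 (95% interval -0.09 to 0.11, edgeR adjusted p = 0.86).

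The ferritin chains moved in opposite directions. FTH1 (chr11:61959718-61967634, minus strand) measured 2326, 2373 and 2273 FPKM in HMC-1.2, against 2955, 2895 and 2881 FPKM in HMC-1.1, 3075, 3127 and 2962 FPKM in clone 1, and 2985, 2947 and 2999 FPKM in clone 2. All libraries of the latter 3 lines were above all libraries of HMC-1.2, by a log2 fold change of 0.28 in HMC-1.1 (edgeR adjusted p = 6.2e-07), 0.33 in clone 1 (edgeR adjusted p = 4.8e-08) and 0.30 in clone 2 (edgeR adjusted p = 2.9e-07). Among themselves these lines showed no difference that passed the test, with 95% intervals of the log2 difference of -0.03 to 0.10 for clone 1 against clone 2, -0.01 to 0.12 for clone 1 against HMC-1.1 and -0.04 to 0.08 for clone 2 against HMC-1.1. Clone 1 lay above HMC-1.1 without overlap, by a narrow margin. With library size alone as the scaling, clone 1 exceeded clone 2 (0.07, edgeR adjusted p = 0.026) and HMC-1.1 (0.08, edgeR adjusted p = 0.042).

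FTL (chr19:48965309-48966879, plus strand) had the reverse order. It measured 2565, 2551 and 2436 FPKM in HMC-1.2, 2154, 2113 and 2227 FPKM in HMC-1.1, 2155, 2199 and 2088 FPKM in clone 1, and 2270, 2257 and 2223 FPKM in clone 2, so that HMC-1.2 was highest without overlap. The log2 fold change against HMC-1.2 was -0.28 in HMC-1.1 (edgeR adjusted p = 3.4e-06), -0.29 in clone 1 (edgeR adjusted p = 2e-06) and -0.21 in clone 2 (edgeR adjusted p = 8.9e-05). The sum of both chains was 4841 ± 116 FPKM in HMC-1.2 (SD, n = 3), 5075 ± 57.7 FPKM in HMC-1.1, 5202 ± 140 FPKM in clone 1 and 5227 ± 25.9 FPKM in clone 2. As a share of all counts the gap was smaller: 0.281 to 0.297% in HMC-1.2 overlapped with 0.289 to 0.300% in HMC-1.1. Clone 1 (0.298 to 0.313%) and clone 2 (0.298 to 0.302%) lay above HMC-1.2 by a narrow margin. Processed ferritin pseudogenes could draw reads from these genes, but the 4 FTH1 and 4 FTL pseudogenes in the tables held at most 0.0497% and 0.0122% of the counts of their parent gene.

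The balance between the chains therefore turned over between HMC-1.2 and the other lines. The ratio of FTH1 to FTL in FPKM was 0.923 ± 0.014 in HMC-1.2 (SD, n = 3; 0.907, 0.930 and 0.933), 1.35 ± 0.045 in HMC-1.1 (1.37, 1.37 and 1.29), 1.42 ± 0.0041 in clone 1 (1.43, 1.42 and 1.42) and 1.32 ± 0.023 in clone 2 (1.315, 1.305 and 1.349). Light chain mRNA was the more abundant in 3 of 3 HMC-1.2 libraries, and heavy chain mRNA in 9 of 9 libraries of the other lines. The log2 difference of the ratio from HMC-1.2 was 0.62 for clone 1, 0.52 for clone 2 and 0.54 for HMC-1.1, each with a two-sided exact permutation p = 0.1, the smallest that 3 libraries against 3 can give. Clone 1 exceeded clone 2 (0.10) and HMC-1.1 (0.08) without overlap, again at the smallest exact permutation p = 0.1, while clone 2 and HMC-1.1 overlapped (-0.02, exact permutation p = 0.5).

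**Figure D3:**
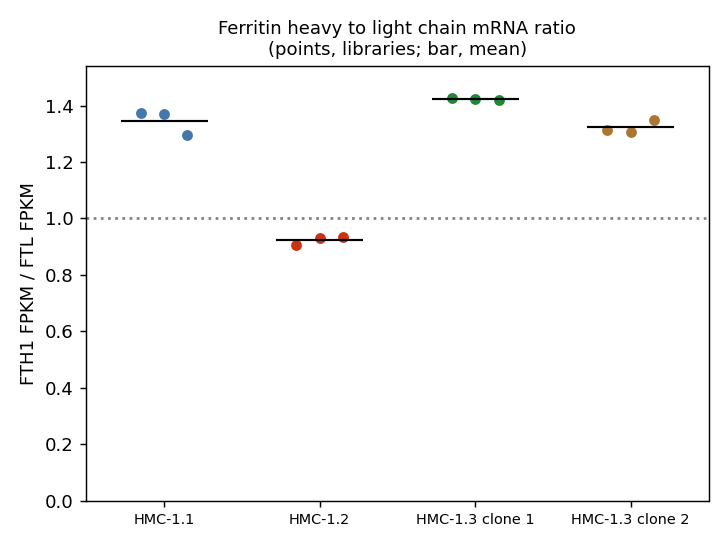
Ratio of FTH1 to FTL FPKM (y axis, from 0) in each library (points) of the 4 lines, with the group mean as a bar and equality as a dotted line. The 3 HMC-1.2 libraries lie at 0.907 to 0.933 and the 9 others at 1.29 to 1.43.

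The largest difference in the set was in SLC40A1 (chr2:189560590-189583758, minus strand), the gene for ferroportin. HMC-1.2 libraries held 156, 165 and 153 counts of it, HMC-1.1 libraries 5, 4 and 2, clone 1 libraries 8, 2 and 3, and clone 2 libraries 4, 2 and 1. Each HMC-1.2 library was far above all 9 others, although 1.62 ± 0.20 FPKM (SD, n = 3) is a low level even there. Relative to library depth, HMC-1.2 had 41.7 times the counts of clone 1 (95% interval 24.2 to 79.0), 82.9 times those of clone 2 (39.9 to 207.3) and 50.9 times those of HMC-1.1 (28.2 to 102.6), where the intervals cover counting error only. The edgeR log2 fold change against HMC-1.2 was -5.35 in clone 1 (SE 0.34, adjusted p = 6.3e-10), -6.30 in clone 2 (SE 0.38, adjusted p = 3e-10) and -5.63 in HMC-1.1 (SE 0.35, adjusted p = 5.5e-10). The low counts let 1 library carry these values: the log2 fold change was -6.13 in clone 1 without clone 1 replicate 1 and -6.97 in clone 2 without clone 2 replicate 1. On log2(FPKM + 1), a scale that understates the change of low genes, limma gave -1.305 to -1.355. With 1 to 8 counts in a library, differences among the 3 low lines were not detectable at this depth, with edgeR adjusted p from 0.25 to 0.80.

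Of the genes for the iron regulatory proteins, IREB2 (chr15:78437431-78501453, plus strand) was lower outside HMC-1.2 and ACO1 (chr9:32384603-32454769, plus strand) was higher. IREB2 measured 45.4, 45.8 and 50.9 FPKM in HMC-1.2, 35.9, 38.3 and 35.2 FPKM in HMC-1.1, 35.8, 34.1 and 36.5 FPKM in clone 1, and 36.1, 36.4 and 39.5 FPKM in clone 2. HMC-1.2 stood apart and the other 3 lines overlapped in FPKM. Its log2 fold change was -0.43 in clone 1 (edgeR adjusted p = 1.2e-08), -0.32 in clone 2 (edgeR adjusted p = 5e-07) and -0.35 in HMC-1.1 (edgeR adjusted p = 1.9e-07). ACO1 ranged from 21.8 to 22.8 FPKM in HMC-1.2 and from 25.1 to 27.5 FPKM in the 9 other libraries, with log2 fold changes of 0.15 in clone 1 (edgeR adjusted p = 0.0026), 0.24 in clone 2 (edgeR adjusted p = 3.5e-05) and 0.23 in HMC-1.1 (edgeR adjusted p = 5.7e-05).

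FBXL5 (chr4:15604381-15681679, minus strand), which acts on the IREB2 product, was higher in the lines in which IREB2 was lower. It measured 18.4, 17.2 and 15.6 FPKM in HMC-1.2, 18.6 to 19.9 FPKM in clone 2, 19.6 to 22.7 FPKM in HMC-1.1 and 22.2 to 24.2 FPKM in clone 1. HMC-1.2 had the lowest values and clone 1 the highest mean, and HMC-1.1 overlapped with either clone. The log2 fold change against HMC-1.2 was 0.56 in clone 1 (1.48-fold, just under the 1.5-fold limit, which it passed at 0.59 without HMC-1.2 replicate 1, edgeR adjusted p = 1.5e-08), 0.41 in HMC-1.1 (edgeR adjusted p = 9.4e-07) and 0.29 in clone 2 (edgeR adjusted p = 6.7e-05). Over all alternative settings the clone 1 value ran from 0.42 to 0.62, on either side of that limit. On the FPKM scale with limma the clone 2 difference missed the threshold (0.17, adjusted p = 0.065).

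HMOX1 (chr22:35380361-35394214, plus strand), the inducible haem oxygenase, measured 15.4, 14.2 and 13.8 FPKM in HMC-1.2, 18.0, 17.6 and 17.8 FPKM in HMC-1.1, 19.8, 19.8 and 19.8 FPKM in clone 1, and 20.1, 19.9 and 19.6 FPKM in clone 2. The 3 levels did not overlap, with HMC-1.2 lowest, HMC-1.1 next and the clones highest. Against HMC-1.2 the log2 fold change was 0.41 in clone 1 (edgeR adjusted p = 5.9e-07), 0.43 in clone 2 (edgeR adjusted p = 4.7e-07) and 0.25 in HMC-1.1 (edgeR adjusted p = 0.00016). The clones differed from each other by -0.02 (95% interval -0.11 to 0.08, edgeR adjusted p = 0.78), and each exceeded HMC-1.1, by 0.16 (edgeR adjusted p = 0.019) in clone 1 and 0.17 (edgeR adjusted p = 0.0049) in clone 2, of which the former missed the threshold without HMC-1.1 replicate 2 or 3 or clone 1 replicate 1 or 2 (adjusted p = 0.072, 0.057, 0.074 and 0.061).

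Comparing the lines other than HMC-1.2 showed how much of the set separates the clones. Between clone 1 and clone 2, 6 of 10 members passed the adjusted p (50.2% of all genes) and 1, TFRC, also passed 1.5-fold (12.6%). Clone 1 was higher in SLC11A2 (0.32) and FBXL5 (0.28) and lower in TFRC (-0.72), STEAP3 (-0.35), IREB2 (-0.10) and ACO1 (-0.10). The last 2 calls were small: IREB2 missed the threshold without clone 1 replicate 1 (edgeR adjusted p = 0.065), and ACO1 without clone 1 replicate 2 or 3 or clone 2 replicate 1 (edgeR adjusted p = 0.059, 0.12 and 0.16). Both also missed it with upper-quartile factors, with library size alone and on both limma scales. Between clone 1 and HMC-1.1, 4 members passed the adjusted p (18.7% of all genes), a count that fell to 2 without HMC-1.1 replicate 2 or clone 1 replicate 1 and to 1 without HMC-1.1 replicate 3. The labels mark HMC-1.2 replicate 1, clone 1 replicate 3 and clone 2 replicate 1 as resent; in a fit that allowed for this mark the count was 3, and FBXL5 missed the threshold (edgeR adjusted p = 0.068). In that comparison, 0 of 10 were changed over 1.5-fold by edgeR (1.01% of all genes), with 6 at an unadjusted p under 0.05 and 0 changed by DESeq2 or limma. Between clone 2 and HMC-1.1, 5 passed the adjusted p (36.0% of all genes), and by edgeR 0 of 10 were changed over 1.5-fold (8.19% of all genes), with 5 at an unadjusted p under 0.05 and 0 changed by DESeq2 or limma.

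A wider list of 69 iron pathway genes, none of them members, had 57 genes that could be tested, and its changed genes were mostly ones that rose. Against HMC-1.2, 6 genes were changed in clone 1 and 5 in clone 2, each of them higher, and HMC-1.1 had 5 changed genes that were higher and TFR2 that was lower. These counts, out of 57, are below the 20.0%, 16.5% and 17.6% of all genes changed in the same comparisons. By the adjusted p, 25 were higher and 16 lower in clone 1 (30.1% and 29.3% of all genes), 24 and 5 in clone 2 (24.7% and 23.8%), and 26 and 14 in HMC-1.1 (27.2% and 26.5%), and the same shares of all genes stand behind the counts of each list below. Of these, the 15 mitochondrial iron and iron-sulfur cluster genes gave 3 and 4, 3 and 1, and 4 and 4. The median log2 fold change was 0.07, 0.09 and 0.08. Transferrin itself (TF) was among the 12 genes too low to test.

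The export list had 3 of 5 genes that could be tested. HEPH encodes hephaestin, the ferroxidase that works with ferroportin at the cell surface, and it ran opposite to SLC40A1. HMC-1.2 libraries held 22, 33 and 21 counts of HEPH, against 503, 455 and 493 in HMC-1.1, 422, 395 and 409 in clone 1, and 336, 357 and 459 in clone 2, without overlap. HEPH thus rose by log2 fold changes of 3.81 (SE 0.14, edgeR adjusted p = 2.9e-13) in clone 1, 3.62 (SE 0.14, edgeR adjusted p = 7.1e-13) in clone 2 and 4.01 (SE 0.14, edgeR adjusted p = 1.3e-13) in HMC-1.1. The HEPH level remained low in every line, at 0.227 ± 0.084 FPKM in HMC-1.2 and 2.54 to 3.27 FPKM in the other group means (n = 3 each). ABCG2, a transporter that can export haem and porphyrins, had 1 to 5 counts in HMC-1.2 libraries and 14 to 32 in the others, with log2 fold changes of 2.18 for HMC-1.1, 2.18 for clone 1 and 2.47 for clone 2 (edgeR adjusted p = 0.0012, 0.0011 and 0.00037).

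Of the haem synthesis and breakdown genes, 11 of 12 could be tested, and by the adjusted p 8 were higher and 1 lower in clone 1, 7 higher in clone 2, and 7 higher and 2 lower in HMC-1.1 (30.1% and 29.3%, 24.7% and 23.8%, and 27.2% and 26.5% of all genes). FECH, ferrochelatase, which inserts iron into the porphyrin ring, was the changed gene in each. It measured 71.9, 66.2 and 68.5 FPKM in HMC-1.2, 119, 122 and 119 FPKM in HMC-1.1, 122, 122 and 125 FPKM in clone 1, and 177, 174 and 182 FPKM in clone 2. HMC-1.2 was lowest and clone 2 highest, with no overlap between these and the middle pair. Its log2 fold change was 0.83 in clone 1 (edgeR adjusted p = 1.9e-13), 1.31 in clone 2 (edgeR adjusted p = 4.7e-16) and 0.79 in HMC-1.1 (edgeR adjusted p = 3.7e-13), and clone 2 exceeded clone 1 by 0.49 (edgeR adjusted p = 3.9e-10). SLC25A37, the mitochondrial carrier that supplies FECH with iron, had the same order, from 22.9 ± 0.84 FPKM in HMC-1.2 to 37.5 ± 0.046 FPKM in clone 2 (SD, n = 3), and its log2 fold change was 0.71 in clone 2 (edgeR adjusted p = 1.9e-11) and 0.41 and 0.37 in clone 1 and HMC-1.1. BLVRA, which reduces the biliverdin that HMOX1 makes and was chosen after its values were seen, had log2 fold changes of 0.48, 0.51 and 0.44 in clone 1, clone 2 and HMC-1.1 (edgeR adjusted p = 2.9e-08, 1.5e-08 and 1.1e-07). BLVRB of the same list, also named after its values were seen, measured 50.4 to 56.6 FPKM in HMC-1.2. It overlapped there with HMC-1.1 (53.7 to 58.4 FPKM) and clone 2 (52.2 to 55.9 FPKM), and clone 1 was higher (67.8 to 71.4 FPKM). Beside these haem genes, KLF1, an erythroid transcription factor, was at 15 to 41 counts in HMC-1.2 libraries and 101 to 158 in the others, and HBB at 5 to 9 and 28 to 45 counts. Of the same erythroid list, EPOR ran the other way (13.8 ± 1.2 FPKM in HMC-1.2 and 9.72 to 10.45 FPKM in the other group means), HBA2 and ALAS2 overlapped between HMC-1.2 and each other line, and HBG2 overlapped with HMC-1.1 and clone 2 and was higher in clone 1. The part of these markers in the result was not tested.

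**Figure D4:**
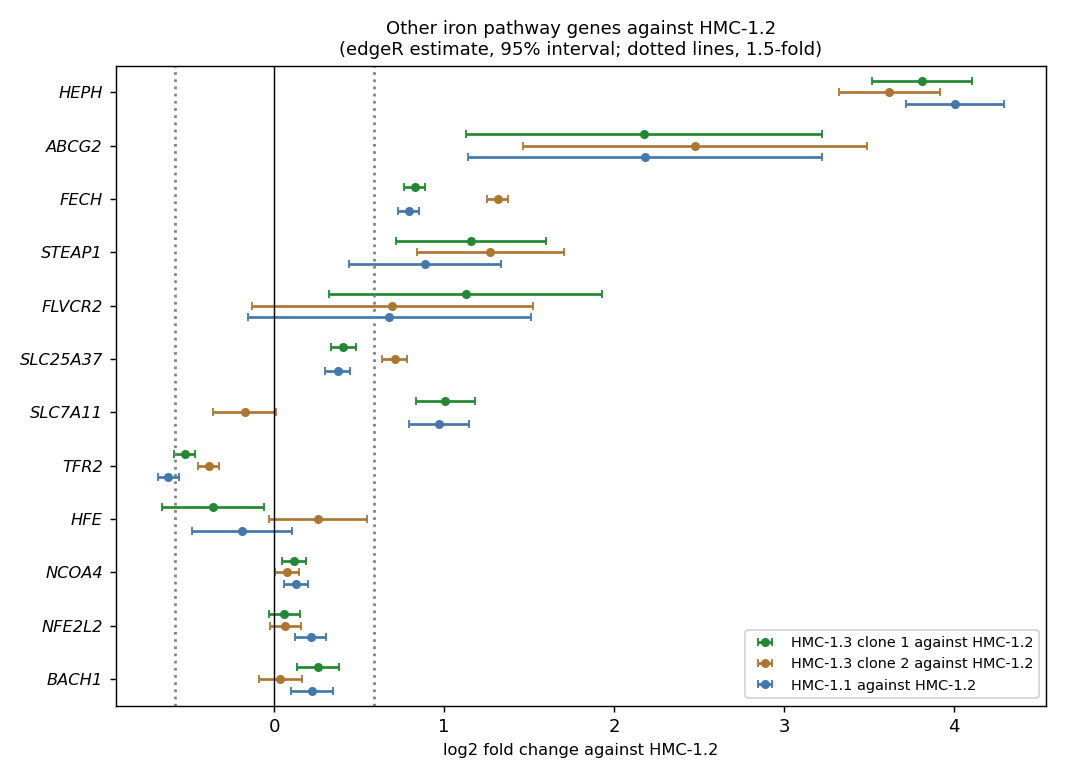
edgeR log2 fold change (x axis) of 12 other iron pathway genes in HMC-1.3 clone 1, HMC-1.3 clone 2 and HMC-1.1 against HMC-1.2 (points) with 95% intervals (bars) and 1.5-fold as dotted lines. HEPH, ABCG2, FECH and STEAP1 lie to the right of 1.5-fold in 3 of 3 comparisons, whereas SLC7A11 does so in clone 1 and HMC-1.1 and not in clone 2.

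Among the uptake and vesicle genes, 11 of 18 could be tested, and by the adjusted p 5 were higher and 3 lower in clone 1, 5 and 1 in clone 2, and 6 and 1 in HMC-1.1, beside the shares of all genes given for the haem genes. TFR2, a homologue of TFRC that senses transferrin in liver and erythroid cells, was of a similar level to TFRC, at 71.7 ± 0.12 FPKM in HMC-1.2, 55.8 ± 1.9 FPKM in clone 2, 50.7 ± 1.6 FPKM in clone 1 and 48.0 ± 1.1 FPKM in HMC-1.1 (SD, n = 3). Both receptors were highest in HMC-1.2, with TFR2 log2 fold changes of -0.62 for HMC-1.1, -0.53 for clone 1 and -0.39 for clone 2 (edgeR adjusted p = 1.3e-11, 9.5e-11 and 6.5e-09), of which the first is under 1.5-fold by limma. STEAP1, of the same metalloreductase family as STEAP3, rose from 26 to 40 counts in HMC-1.2 libraries to 57 to 111 in the others, by log2 fold changes of 1.16, 1.27 and 0.89 (edgeR adjusted p = 0.00013, 6.2e-05 and 0.0019 in clone 1, clone 2 and HMC-1.1). FLVCR2, a membrane transporter at 6 to 29 counts, was changed in clone 1 (1.13, edgeR adjusted p = 0.017), but missed the threshold by DESeq2 (adjusted p = 0.053) and without HMC-1.2 replicate 3 or clone 1 replicate 1 (adjusted p = 0.066 and 0.1). With limma on log2(FPKM + 1) and log2(FPKM + 0.1) the FLVCR2 value was 0.11 and 0.37 (limma adjusted p = 0.77 and 0.68). HFE, the haemochromatosis protein that binds TFRC, had a log2 fold change of -0.36 in clone 1 (edgeR adjusted p = 0.037, and 0.06 to 0.16 without HMC-1.2 replicate 1 or 3 or clone 1 replicate 1 or 2). That clone 1 value also missed the threshold with upper-quartile factors and with library size alone (edgeR adjusted p = 0.053 and 0.079). On the same limma scales it was -0.043 and -0.058 (limma adjusted p = 0.85 for both). HFE was at 0.26 in clone 2 (edgeR adjusted p = 0.13, 0.038 without clone 2 replicate 2 and 0.048 with no filter) and -0.19 in HMC-1.1 (edgeR adjusted p = 0.27).

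Of the storage and ferritinophagy genes, 4 of 5 could be tested, and by the adjusted p 2 were higher and 1 lower in clone 1, 1 and 1 in clone 2, and 1 was higher in HMC-1.1. NCOA4, the receptor that carries ferritin to the lysosome, had log2 fold changes of 0.12 in clone 1 (edgeR adjusted p = 0.0058), 0.08 in clone 2 (edgeR adjusted p = 0.071, and 0.042 without clone 2 replicate 2) and 0.13 in HMC-1.1 (edgeR adjusted p = 0.0033). The NCOA4 value in clone 2 also passed with library size alone (edgeR adjusted p = 0.021) and on both limma scales (limma adjusted p = 0.027 and 0.028). Of 14 regulators and antioxidant genes, 13 could be tested, with 5 higher and 6 lower in clone 1, 5 and 2 in clone 2, and 6 and 7 in HMC-1.1. NFE2L2, which activates HMOX1 and the ferritin genes under oxidative stress, differed from HMC-1.2 in HMC-1.1 (0.21, edgeR adjusted p = 5e-04) and had values of 0.06 and 0.07 in the clones (edgeR adjusted p = 0.25 and 0.24). With library size alone the NFE2L2 value in clone 1 was 0.11 and passed (edgeR adjusted p = 0.04). BACH1, the haem-binding repressor of the same genes, was higher in clone 1 (0.26, edgeR adjusted p = 0.0011) and HMC-1.1 (0.22, edgeR adjusted p = 0.0043), with 0.04 in clone 2 (edgeR adjusted p = 0.65). SLC7A11, the cystine importer, measured 2.58 to 2.81 FPKM in HMC-1.2 and 2.23 to 2.64 FPKM in clone 2, against 5.15 to 5.70 FPKM in HMC-1.1 and 5.16 to 6.50 FPKM in clone 1. Its log2 fold change was 1.01 in clone 1 (edgeR adjusted p = 1.5e-08), 0.97 in HMC-1.1 (edgeR adjusted p = 3.1e-08) and -0.17 in clone 2 (edgeR adjusted p = 0.11, and 0.038 without clone 2 replicate 3). That clone 2 value also passed with no filter and with only the compared groups in the fit (edgeR adjusted p = 0.018 and 0.041).

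Between the clones, 4 of the 57 pathway genes were changed (12.6% of all genes), namely SLC7A11 (1.18 higher in clone 1 on the log2 scale) and HFE (-0.62), EPAS1 (-0.68) and BMP6 (-0.73), of which the last 2 were named after their values were seen. Between clone 2 and HMC-1.1, 4 were changed (8.19% of all genes), SLC7A11 and LRP1 lower and EPAS1 and BMP6 higher, where LRP1 too was named after its values were seen. Between clone 1 and HMC-1.1 edgeR called 0 of 57 (1.01% of all genes), with 18 at an unadjusted p under 0.05 and 0 called by DESeq2 or limma.

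The genes whose log2 CPM (counts scaled to a common library size) followed TFRC most closely over the 12 libraries, among 10886 genes whose mean reached 5 CPM, were the RNA-binding protein genes TARDBP (r = 0.997) and SRSF1 (r = 0.996) and the glycosyltransferase gene B4GALT5 (r = 0.994). Like TFRC, B4GALT5 was highest in HMC-1.2 (26.5 ± 0.77 FPKM), followed by clone 2 (22.5 ± 0.77), HMC-1.1 (16.4 ± 0.44) and clone 1 (13.5 ± 0.48; SD, n = 3). For FTH1 they were LPXN, LHX5 and RGS10 (r = 0.987, 0.986 and 0.986), for FTL LEMD2 and CAPNS1 (r = 0.985 and 0.983), and for HMOX1 SEPT11, CPPED1 and ASCC2 (r = 0.986, 0.973 and 0.971). These values describe 12 libraries that fall into 4 lines of 3, so that a gene that separates the lines in the same order scores high. On the log2(FPKM + 1) scale 2 of the 3 names held for TFRC, 1 for FTH1 and 0 for FTL and HMOX1.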

How the data were processed

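RNA from 12 cultures was analysed. According to the submitters' processing notes and the study's methods, the authors used Cutadapt 2.10 for trimming, STAR 2.5.3 for alignment (hg38), Picard, and RSEM 1.3.0 for gene counts. The deposited table of expected counts is not normalized, and 7.39% of its values are not whole, so they were rounded. The deposited FPKM values are scaled by length and depth by the authors and were used for levels and ratios. Gene identifiers and symbols are those of the tables, and positions are from Gencode 44.

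Groups came from the labels. edgeR 4.0.16 in R 4.3.3 fitted all 4 groups (TMM, filterByExpr, quasi-likelihood test), and a gene is called changed where its adjusted p is under 0.05 and its fold change over 1.5. DESeq2 1.42.0 and limma 3.58.1 on log2(FPKM + 1) and log2(FPKM + 0.1), other scalings and filters, a replicate block and leaving out each library were alternatives. The scripts were tested on simulated data. The members and gene lists were chosen with earlier results of these data known. Named are the 10 members, pathway genes changed against HMC-1.2, the fixed genes TF, TFR2, HFE, NCOA4, NFE2L2 and BACH1, and the 3 genes most correlated with TFRC, FTH1, FTL and HMOX1, of which 1 for FTL is not reported here. The edgeR intervals include the spread between libraries, and the intervals of the SLC40A1 count ratios cover counting error only.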

Additional observations from a re-analysis of the deposited data

Results flagged for a closer look

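The difference from HMC-1.2 was not the same in the edited clones in 6 of the 10 iron genes, by the contrast of clone 1 with clone 2 in the edgeR fit already given above (log2 fold change in clone 1 minus that in clone 2, Benjamini-Hochberg adjusted p). HMC-1.2 cancels out of this contrast, which compares lines that were each grown from a single cell. An effect of the editing step cannot be told apart from clone identity here. TFRC differed by -0.72 (SE 0.03, adjusted p = 2.2e-11), the fall in clone 1 being the larger. SLC11A2 differed by 0.32 (SE 0.04, adjusted p = 2.7e-06) and FBXL5 by 0.28 (SE 0.04, adjusted p = 7.2e-05), with FBXL5 higher than HMC-1.2 in both clones and SLC11A2 in clone 1 (0.34), but not past the test in clone 2 (0.01). STEAP3 differed by -0.35 (SE 0.04, adjusted p = 4.5e-06), with a rise in clone 2 (0.37) and a value of 0.01 in clone 1 that did not pass the test. IREB2 differed by -0.10 (SE 0.03, adjusted p = 0.02) and ACO1 by -0.10 (SE 0.04, adjusted p = 0.038). These last calls depended on the processing: IREB2 was kept in 11 of 17 alternative settings, glmTreat included, and ACO1 in 7 of 17. With upper-quartile factors and with library size alone, the edgeR adjusted p was 0.095 and 0.13 for IREB2 and 0.15 and 0.15 for ACO1. Both also missed the threshold on both limma scales. The share of all genes tested that passed the adjusted p in this contrast was 50.2%.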

How the results depend on the processing

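The members' log2 fold changes against HMC-1.2 kept direction and side of the threshold in 480 of 486 values, leaving aside glmTreat, which tests against 1.5-fold by construction and lost 24 of 28 calls. FBXL5 in clone 2 missed it on both limma scales, and values close to 0 changed sign. These were STEAP3 in clone 1 (-0.0038 by DESeq2, -0.025 to 0.041 without 1 library) and SLC11A2 in clone 2 (-0.0027 to 0.038 without 1 library), and so did BACH1 in clone 2 (-0.031 to 0.098 without 1 library). In the other comparisons 421 of 483 member values were kept. HMOX1 between the clones was 0.017 with upper-quartile factors and 0.019 with library size alone, and FTL in clone 1 against HMC-1.1 was 0.0081 and 0.014 (-0.041 to 0.020 without 1 library). ACO1 in clone 2 against HMC-1.1 was -0.0039 with upper-quartile factors (-0.012 to 0.034 without 1 library), and SLC40A1 in clone 1 against HMC-1.1, at 2 to 8 counts, ran from -0.50 to 0.63.

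The count of changed members between HMC-1.1 and HMC-1.2 was 1 in place of 2 with library size alone, by glmTreat, on both limma scales and without HMC-1.1 replicate 3 (1 to 2 without 1 library), where TFRC, at 1.515-fold, was no longer past the limit. In clone 1 against HMC-1.2 the count of changed members was 2 to 3 without 1 library, with FBXL5 close to the limit. Changed pathway genes numbered 3 by limma on log2(FPKM + 1) between HMC-1.1 and HMC-1.2, 2 by glmTreat between the clones, and 1 by glmTreat and 2 by limma in clone 2 against HMC-1.1. The count of members by adjusted p alone, chosen after seeing the data, was 2 and 1 on the limma scales in clone 1 against HMC-1.1 (1 to 3 without 1 library) and 3 and 3 in clone 2 against HMC-1.1.

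Replicate numbers did not pair the libraries: the correlation of same-numbered deviations was -0.043 to 0.096 over 18 pairs, and the replicate block kept 60 of 60 member values and all member counts, such as 2 changed in clone 1 against HMC-1.2. Depth limits SLC40A1 and ABCG2, at 1 to 8 and 1 to 5 counts in their low lines.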
